A study of Rattus norvegicus with 6 samples.

Results

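The miR-132 and miR-212 cluster consists of the microRNA (miRNA) genes Mir132 (ENSRNOG00000035516) and Mir212 (ENSRNOG00000035476), which were measured by small RNA sequencing in clonal INS-1 lines. Members were taken by gene symbol, and 2 of 2 were found among 32883 genes listed, of which 452 are miRNA genes by symbol. The pair was selected on values already known from these libraries, in which Mir212 was lower in Prader-Willi syndrome (PWS) lines than in control lines. The genotype differences of both genes and of their ratio are therefore given as a description, without a test.

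Libraries came from 6 lines of INS-1(832/13)::mCherry, a rat insulinoma line used as a β-cell model, which also carries human insulin and mouse Ins2-mCherry transgenes. All were grown in INS-1 medium with 7.5 mM glucose and no further treatment, and each line gave 1 library. The control lines 5-9, 2 and 16 lack the PWS-imprinted domain on the silent maternal allele only. The PWS lines 3, 19-1 and 19-4 lack it on the maternal and the active paternal allele, so the maternal deletion is shared by all 6 lines. Lines 2, 16 and 3 and the parent of lines 19-1 and 19-4 were all derived from line 5-9, and lines 19-1 and 19-4 are subclones of 1 edited line. The lines are thus related, and p-values measure only the spread between these lines.

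Mir132 and Mir212 are neighbours that are made from one primary transcript. This transcript responds to cAMP. In neurons it is induced by neurotrophins and synaptic activity through the transcription factor CREB. The mature miRNAs act there on dendrite growth and synaptic function. In pancreatic islets, raised levels of miR-132 and miR-212 have been linked to stronger insulin secretion. A miRNA recognises its target mRNAs mainly by its seed, bases 2 to 8 counted from the 5′ end.

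The sequences are printed because a shared seed is what joins the 2 genes functionally. They are the RefSeq mature sequences (build GRCr8, chromosome 10, plus strand), 5′ to 3′, with the seed in capitals:
rno-miR-132-3p: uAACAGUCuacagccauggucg
rno-miR-212-3p: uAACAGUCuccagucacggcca
rno-miR-132-5p: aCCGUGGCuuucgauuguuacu
rno-miR-212-5p: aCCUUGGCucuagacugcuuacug
The letters AACAGUC, the seed of the 3p arms, occurred at any position in 2 of 724 rat mature sequences listed, those of miR-132-3p and miR-212-3p. These 22-base arms were identical over their first 9 bases and at 17 of 22 positions. The 5 substitutions, written with the base of miR-132-3p first and counted from its 5′ end, were A10C, C14U, U17C, U20C and G22A. The 5p arms had different seeds and were identical at 14 of 22 positions compared. The Mir132 hairpin is shown with its mature arms in capitals, the 5p arm at bases 23 to 44 and the 3p arm at bases 59 to 80 of 101:
Mir132 hairpin: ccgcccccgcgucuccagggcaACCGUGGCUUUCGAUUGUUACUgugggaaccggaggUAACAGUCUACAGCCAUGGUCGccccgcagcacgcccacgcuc
Counts were deposited per gene, so reads of the 5p and 3p arms cannot be told apart here.

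The libraries held 7373691 to 16480475 reads. Summed over 36 Snord116 genes of the deleted domain, control lines held 4251 to 10516 reads and PWS lines 2 or 3, so the libraries matched their labels. Of 8 β-cell markers, 7 had reads in every line, and the eighth, Ins2, was at 0 in line 19-4. The markers of other islet hormone cells, Gcg, Sst, Ppy and Ghrl, were at 0 in all lines. Summed blood markers were not at 0, with 51.2 to 77.1 normalized reads in control lines and 52.5 to 76.5 in PWS lines. Those of fibroblast or smooth muscle summed to 13.1 to 39.4 and to 35.7 to 48.8. The hepatocyte and muscle markers found summed to at most 1.31 and 2.61 in control lines and to 0 in PWS lines. The neuronal list, the 3 copies of Mir124, summed to 383 to 777 normalized reads in the control group and to 152 to 464 in the PWS group. Its part in the results was not tested.

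Mir132 was well expressed in every line. Normalized reads were 28314 in line 5-9, 21926 in line 2 and 41187 in line 16, and 20748 in line 3, 17320 in line 19-1 and 20482 in line 19-4. Line 16 stood highest, and the 3 PWS lines were all lower than the lowest control line, although line 2 was only 5.67% above line 3. The control lines averaged 30476 ± 9811 and the PWS lines 19517 ± 1907 normalized reads (SD, n = 3 each), so that the control mean was 1.56 times the PWS mean. The fitted log2 fold change, PWS minus control on log2(normalized reads + 1), was -0.60 ± 0.24 (SE). It rested in good part on line 16, without which it was -0.36.

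Mir212 had fewer reads than Mir132 and differed more between the groups. Normalized reads were 1953 in line 5-9, 1262 in line 2 and 2613 in line 16, against 1122 in line 3, 814 in line 19-1 and 943 in line 19-4. Again the groups did not overlap, with line 16 highest and line 19-1 lowest. The mean fell from 1942 ± 676 in control lines to 960 ± 155 in PWS lines (SD, n = 3 each), or 49.4% of the control mean. The log2 fold change was -0.97 ± 0.28 (SE), and -0.72 without line 16.

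**Figure D1:**
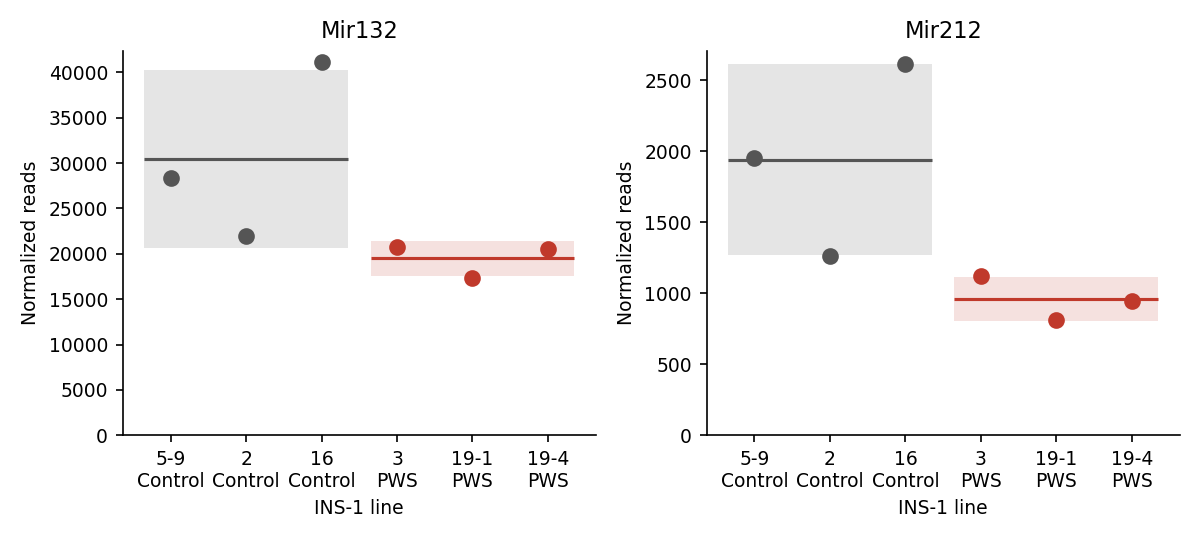
Normalized reads of Mir132 (left) and Mir212 (right) in each INS-1 line, with a point per line, the group mean as a horizontal line and 1 SD as a band (n = 3 lines per group; both axes start at 0). All PWS points lie below all control points in both panels, and line 16 is highest in both.

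Over all genes, limma called 55 of 4292 tested at an adjusted p under 0.1 (1.28%), and 256 had an unadjusted p under 0.05. No call is given for the 2 members. For both members the highest PWS line was below the lowest control line, as for 270 of 4292 genes tested (6.29%) and 31 of 255 miRNA genes tested (12.2%). Nothing is read from the place of the members in these counts, because the pair was chosen with this contrast known. Ordered from the most negative log2 fold change, Mir212 took place 12 and Mir132 place 37 among the 255 miRNA genes. The median of the miRNA genes was -0.14, against 0.0048 for all genes tested.

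**Figure D2:**
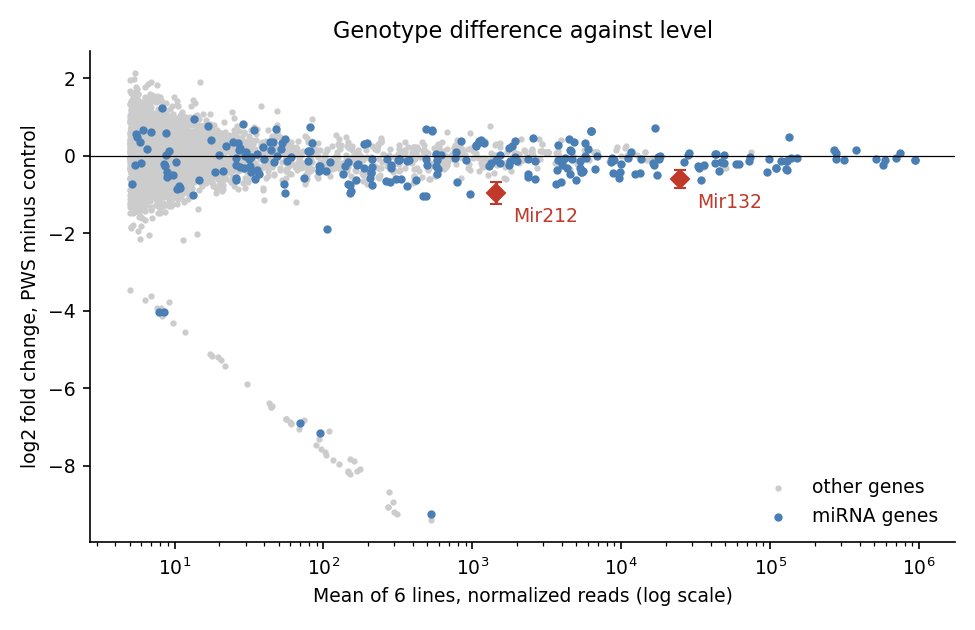
Log2 fold change (PWS minus control) of 4292 genes against their mean level over 6 lines in normalized reads (log axis). Grey points are other genes, blue points are 255 miRNA genes and red diamonds are Mir212 (-0.97) and Mir132 (-0.60) with 1 SE.

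The genes followed each other from line to line. Both ranked the lines in the same order, which was 16, 5-9, 2, 3, 19-4 and 19-1 from high to low. The exact 95% Poisson intervals had a half-width of at most 1.58% of the value for Mir132 and 7.40% for Mir212, whereas the steps between neighbouring lines were 1.30% to 45.5% and 12.4% to 54.8%. Such intervals cover counting error only. Neighbouring lines in the order had separate intervals, except lines 3 and 19-4 for Mir132. Spread was wider among control lines, with a coefficient of variation of 32.2% for Mir132 and 34.8% for Mir212, than among PWS lines, with 9.77% and 16.1%. This difference in spread was not tested, and 2 of the 3 PWS lines are subclones. Added together, the members gave 32418 ± 10473 normalized reads per control line and 20476 ± 2041 per PWS line (SD, n = 3 each), a log2 fold change of -0.62 ± 0.24 (SE). Without line 16 it was -0.38.

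Mir132 had more reads than Mir212 in 6 of 6 lines. The mean log2 ratio was 4.17 ± 0.23 (SD, n = 6; exact two-sided sign-flip permutation p = 0.0312, the smallest that 6 lines allow). With lines 19-1 and 19-4, subclones of 1 line, averaged into 1 sample, it was 4.12 and the exact permutation p was 0.0625, the smallest that 5 samples allow. The levels are reads per gene, and none is given per length because the arms were not counted apart. Mir132 had 14.5 reads per read of Mir212 in line 5-9, with an exact 95% binomial interval of 13.9 to 15.2. The ratio was 17.4 (16.3 to 18.6) in line 2 and 15.8 (15.2 to 16.3) in line 16. In PWS lines it was 18.5 (17.7 to 19.4) in line 3, 21.3 (19.8 to 22.9) in line 19-1 and 21.7 (20.2 to 23.5) in line 19-4.

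**Figure D3:**
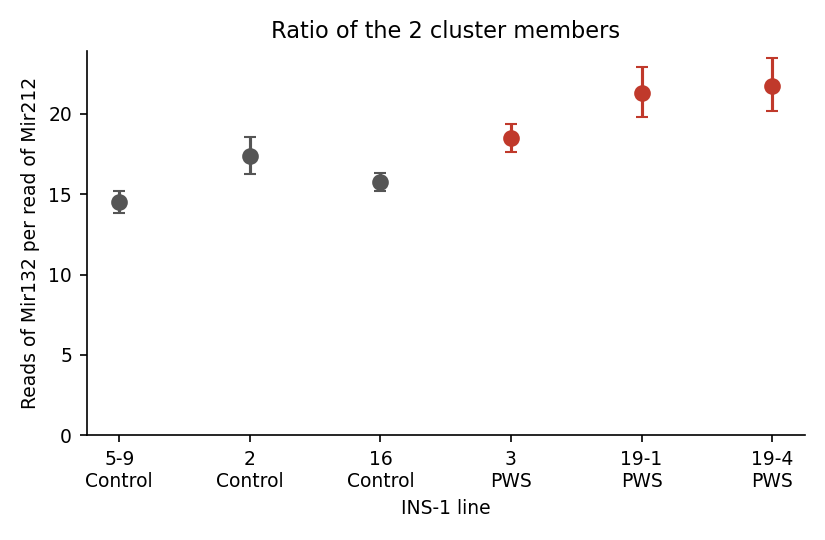
Reads of Mir132 per read of Mir212 in each INS-1 line, with exact 95% binomial intervals as bars (the axis starts at 0). The ratio runs from 14.5 to 17.4 in control lines and from 18.5 to 21.7 in PWS lines, and the intervals of lines 2 and 3 overlap.

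The ratio was thus higher in every PWS line than in any control line, with means of 15.9 ± 1.45 for control and 20.5 ± 1.75 for PWS (SD, n = 3 each). Put as a share of the cluster's reads, Mir212 made up 5.95% ± 0.506 in control lines and 4.67% ± 0.398 in PWS lines. On the log2 scale the means were 3.99 and 4.35. The difference was 0.37, and it ranged from 0.30 to 0.44 over the 6 fits that each left out 1 line.

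Other miRNA genes that lie next to each other were used as a yardstick for this ratio. RefSeq lists 21 neighbouring pairs that lie within 1000 bases of each other and have at least 100 normalized reads per gene in each group. These 21 include Mir132/Mir212 itself, and some of the pairs share a gene. The SD of the log2 ratio over the 6 lines was 0.23 for Mir132/Mir212, place 10 of 21 from the steadiest. It ran from 0.058 for Mir25/Mir93 to 0.66 for Mir183/Mir96, with a median of 0.25. By size of the difference between group means Mir132/Mir212 also took place 10 from the largest, where the median over pairs was 0.26. Groups did not overlap in 10 of 21 pairs (47.6%). The ratio of Mir132 to Mir212 thus stood in the middle of these pairs, which were chosen after the data were seen.

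By control mean, Mir132 took place 40 and Mir212 place 101 among miRNA genes, in reads per gene and not per length. The neighbours of Mir132 in this order were Mir30e at 35697 ± 4079 and Mirlet7g at 36958 ± 3633 above it, and Mir140 at 28039 ± 2652 and Mir106b at 27895 ± 2806 below it (SD, n = 3 each). Mir27a at 1960 ± 339 and Mir301a at 2084 ± 273 stood just above Mir212, and Mir483 at 1902 ± 358 and Mir195 at 1870 ± 457 just below it. All of these means lay within 1 SD of the mean of the respective cluster member. Over the 6 lines the place ranged from 36 to 47 for Mir132 and from 96 to 122 for Mir212. As a share of all miRNA reads, Mir132 averaged 0.317% ± 0.102 for control and 0.218% ± 0.0334 for PWS (SD, n = 3 each). The share of Mir212 was 0.0201% ± 0.00681 for control and 0.0107% ± 0.00219 for PWS.

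The miRNA genes with the most similar profile were sought next. Profiles of log2(normalized reads + 1) were centred on their own mean, and the root-mean-square distance from that of the summed cluster was taken over the 6 lines. Among the 172 other miRNA genes averaging 100 normalized reads or more the distance had a median of 0.48, and that between Mir132 and Mir212 themselves was 0.21. The closest was Mir532 at 0.24, an X-linked miRNA, with 11593 normalized reads as control mean and 7733 as PWS mean. Next came Mir32 at 0.27, with 2744 and 1994, and Mir141 at 0.28, a miR-200 family member of epithelial cells, with 77179 and 67833. Mir1839 at 0.30 had 18011 and 15024, nearly the means listed for Scarna15, 18004 and 15017, so its reads cannot be told apart from those of that gene. Mir503 at 0.30 had 183 and 151. Only Mir32 among the 172 shared the exact order of lines with the cluster. These distances describe 6 related lines, and likeness was judged over samples that also differ in genotype.

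**Figure D4:**
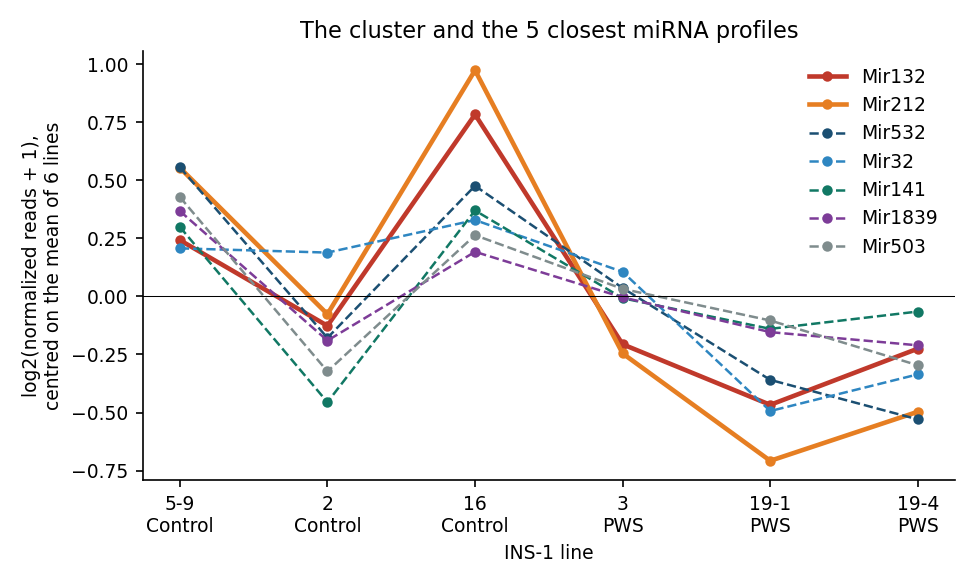
Centred log2(normalized reads + 1) of Mir132, Mir212 and the 5 miRNA genes with the closest profiles, by INS-1 line; lines join the points of 1 gene and stand for no order. Line 16 is the highest point of Mir132 and Mir212, and the 3 PWS lines and control line 2 lie below 0 in both.

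The other miRNAs known for roles in β-cells gave a frame for the cluster. Of 42 symbols listed, 27 were in the table, and all of these were tested. limma called 0 of 27, against 1.28% of all genes tested, with 2 at an unadjusted p under 0.05, against 256 of 4292. These were Mir124-1 and Mir124-2, copies with the same mature sequence. edgeR and DESeq2 also called 0, with 1 each at an unadjusted p under 0.05. The median log2 fold change was -0.20, beside -0.14 for all miRNA genes tested, and 21 of 27 had a negative value. This median was -0.06 without line 5-9, -0.36 without line 2 and -0.10 with scaling to the total of reads in miRNA genes. The most abundant were Mir7a1 and Mir7a2, which share their mature sequence. Control lines averaged 1000200 ± 335922 normalized reads of Mir7a1 and PWS lines 888246 ± 134084 (SD, n = 3 each). For Mir7a2 the means were 997829 ± 333853 and 895324 ± 131966. Mir375, a regulator of insulin exocytosis and β-cell mass, averaged 720240 ± 76970 and 691631 ± 137869. Mir148a, which restrains a repressor of insulin transcription, averaged 613413 ± 87170 and 573323 ± 155118. The fold changes of these 4 lay between -0.12 and -0.07.

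The 3 copies of Mir124, a neuronal miRNA also made in β-cells, had the most negative values of this list and are named after their values were seen. Mir124-1 stood at 265, 136 and 187 normalized reads in lines 5-9, 2 and 16 and at 148, 111 and 55.4 in lines 3, 19-1 and 19-4, a log2 fold change of -0.95 ± 0.37 (SE). Line 3 lay above line 2, so the groups overlapped. The copies share their mature sequence and are not separate measurements.

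In these small RNA libraries, genes of the cAMP and CREB pathway could be followed only through mRNA fragments, which were few. The paper also sequenced total RNA of the same lines, which was not analysed here. Of 31 symbols listed, 31 were in the table and 13 reached a mean of 5 normalized reads. limma called 0 of these 13, against 1.28% of all genes tested, with 1 at an unadjusted p under 0.05, against 256 of 4292. edgeR also called 0 of 13, with 1. DESeq2, which kept 22 of the list, called 0, with 0 at an unadjusted p under 0.05. The median log2 fold change was -0.13, and 8 of 13 values were negative. Its sign was not stable, at 0.017 without line 16, 0.0040 without line 19-4 and 0.084 when genes averaging 1 normalized read or more were kept. The median was -0.42 without line 5-9, -0.37 without line 19-1, -0.20 with lines 19-1 and 19-4 averaged, -0.058 with no filter and -0.046 with scaling to the total of reads in miRNA genes. Irs2, an insulin receptor substrate induced by CREB, averaged 45.3 ± 6.95 normalized reads for control and 44.4 ± 15.2 for PWS (SD, n = 3 each). The phosphatase gene Dusp1 averaged 23.3 ± 3.06 and 16.3 ± 1.90, and the immediate early gene Fos 13.9 ± 1.86 and 8.01 ± 1.84. The PWS lines were lower without overlap for both genes, as for 6.29% of all genes tested, with log2 fold changes of -0.49 ± 0.34 and -0.73 ± 0.38 (SE). Gipr, the receptor for the incretin GIP, averaged 13.8 ± 8.18 and 14.6 ± 7.06. These 4 genes were taken by control mean, an order that favours genes lower in PWS lines, and by the mean over all lines Vgf, at 11.9 normalized reads, would stand in place of Fos. Egr1, another immediate early gene, went the other way, with 1.97, 5.23 and 0.772 normalized reads in lines 5-9, 2 and 16 and 10.1, 9.45 and 6.59 in lines 3, 19-1 and 19-4, and is named after its values were seen. It is the 1 gene of this list at an unadjusted p under 0.05. With a control mean of 2.66, it passed the filter only through the PWS lines, so nothing is read from its difference.

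Fragments of known miR-132 or miR-212 target mRNAs were scarcer still. Of 17 symbols, 15 were in the table and 6 were tested. limma called 0 of 6, against 1.28% of all genes tested, with 1 at an unadjusted p under 0.05, against 256 of 4292. edgeR also called 0 of 6, with 1. DESeq2, which kept 10 of the list, called 0, with 0 at an unadjusted p under 0.05. The median log2 fold change was 0.34, and 1 of 6 was negative. This median was 0.58 without line 5-9, 0.76 without line 2, 0.22 without line 3, 0.55 without line 19-4 and 0.19 with a pseudocount of 5. The antiproliferative gene Btg2 averaged 20.7 ± 11.5 normalized reads for control and 25.3 ± 5.94 for PWS (SD, n = 3 each). The transcription factor gene Foxo3 averaged 10.9 ± 8.36 and 8.63 ± 4.07, and the growth factor gene Hbegf 7.15 ± 1.89 and 12.6 ± 7.80. Arhgap32, a target of miR-132 in neurons, is named after its values were seen. It stood at 5.91, 3.92 and 3.86 normalized reads in lines 5-9, 2 and 16 and at 11.9, 12.6 and 7.91 in lines 3, 19-1 and 19-4. The lowest PWS line was above the highest control line, as for 209 of 4292 genes tested (4.87%). It is the 1 gene of this list at an unadjusted p under 0.05. With a control mean of 4.56, it too passed the filter only through the PWS lines, and nothing is read from its difference. Small RNA libraries hold only fragments of mRNAs, and values of this size rest on few reads. From its total RNA sequencing of these lines, the paper reports that predicted targets of Mir212 were not differentially expressed.

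In the RefSeq annotation Mir212 lies upstream of Mir132 on the same strand, between Hic1, a transcriptional repressor gene, and the lncRNA gene LOC120095261, followed by Ovca2 and Dph1. Hic1 had at most 2.95 normalized reads in any line, and Dph1, an enzyme of diphthamide synthesis, had 4.63 to 13.1 in control lines and 3.95 to 10.7 in PWS lines. Hic1 and Dph1 thus had few or no reads in every line, while Mir132 had at least 17320 normalized reads. Ovca2 and LOC120095261 were not analysed here.

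**Figure D5:**
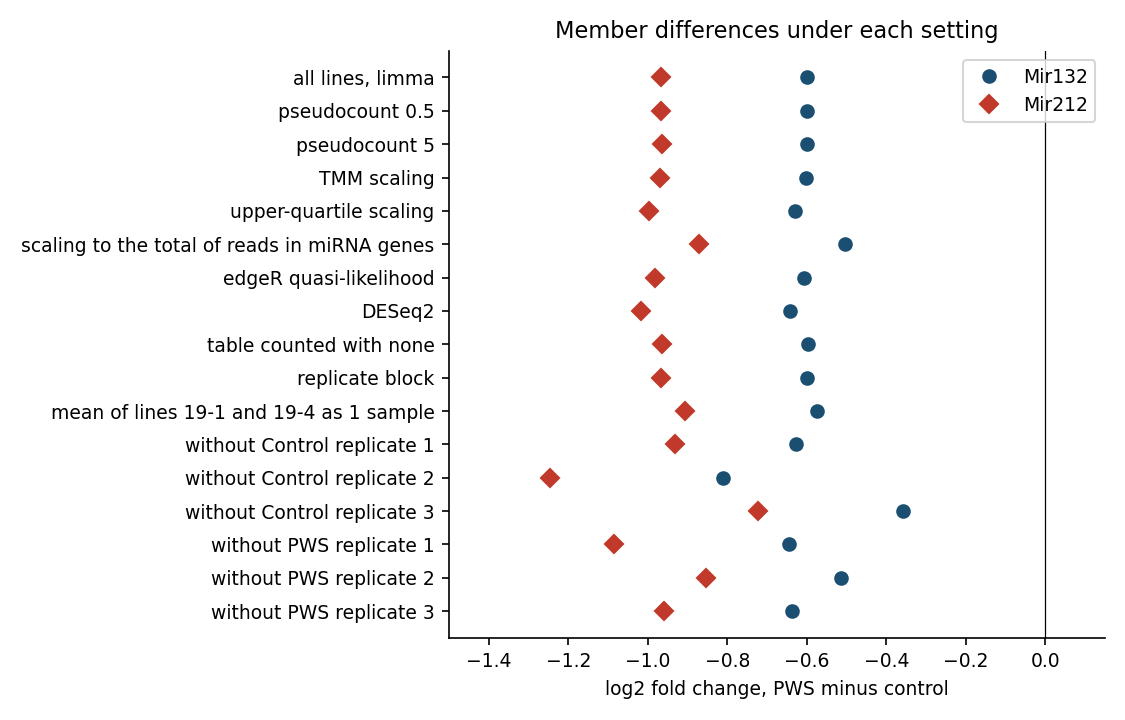
Log2 fold change (PWS minus control) of Mir132 (circles) and Mir212 (diamonds) under each setting that can move it, with the vertical line at 0. All values are negative, from -0.81 to -0.36 for Mir132 and from -1.25 to -0.72 for Mir212, and the extremes are those without control line 2 and without control line 16, labelled as control replicates 2 and 3.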

How the data were processed

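Per the labels and the study's methods, the authors deduplicated reads with UMI-tools 1.0.0, removed adapters with cutadapt 1.18, aligned with Bowtie2 2.3.4.2 to rat build Rnor_6.0 with a custom annotation, and counted genes with HTSeq 0.11.2. The deposited values are a signal: counts per gene divided by a DESeq2 size factor per library. They came in 2 tables, counted with the HTSeq options "all" (used here) and "none". Their columns of mean, fold change and p-values were not used.

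Dividing each column by its lowest value above 0 gave whole numbers (100.0% of values within 0.001), which were used as recovered reads. limma-trend (limma 3.58.1, R 4.3.3) was fitted on log2(normalized reads + 1), with genotype alone, keeping genes that averaged 5 normalized reads or more, with Benjamini-Hochberg adjustment. It was tested on simulated data. On recovered reads, edgeR 4.0.16 called 59 genes and DESeq2 1.42.0 called 58. Fold changes understate low genes.

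Members and lists were chosen with earlier results of these data known. Named were the cluster, called list genes or else the 4 tested genes of each list with the highest control mean, neighbours in level and locus, and the 5 closest profiles. A list gene that this rule names is not reported here. Neighbouring pairs were added after the data were seen. Alternatives were other pseudocounts, filters, scalings, tests, tables, thresholds, a replicate block, averaged subclones and leaving out each line.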

Additional observations from a re-analysis of the deposited data

How the results depend on the processing

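Mir132, Mir212, their sum and their ratio kept the direction of their genotype difference and moved by less than 1 SD between lines in 16 of 16 alternatives each. Scaling to the total of reads in miRNA genes moved the median of all genes tested from 0.0048 to 0.096. With it the log2 fold change was -0.50 for Mir132 and -0.87 for Mir212. Fits that each left out 1 line gave -0.81 to -0.36 for Mir132, -1.25 to -0.72 for Mir212 and -0.84 to -0.38 for the sum. The lower end was without control line 2 and the upper end without control line 16. With the replicate block 56 genes were called, with 0 in each of the 3 lists, and the fitted log2 fold changes were -0.60 for Mir132 and -0.97 for Mir212, as without it. The labels do not say that the numbers pair the lines. Deviations from the group means correlated at 0.414, 0.218 and -0.0574 between lines of the same number, across 1087 genes. Lines of different numbers were not compared, so whether the numbers pair the lines was not tested. The count of all called genes stayed between 41 and 66, and the lists had 0 calls throughout. The log2 ratio of Mir132 to Mir212 over lines was 4.12 with lines 19-1 and 19-4 averaged and 4.11 to 4.23 when 1 line was left out. Its exact sign-flip p was then 0.0625, the smallest that 5 samples allow. The genes tested averaged 5.56 to 44.9 normalized reads in the pathway list and 5.60 to 23.0 in the target list, and which changes could be detected at this depth was not tested.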
